A study of Danio rerio with 15 samples.

Results

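The genes described here are the DNA replication and mitosis genes of zebrafish kdrl-positive endothelial cells. They were chosen by name: rows whose gene name begins with mcm, orc, rfc, gins, pola, pold, pole, prim, rrm, cenp, aurk or bub, with ccna, ccnb or ccne, or with cdk or cdc and a number, together with pcna, top2a, hmgb2a or hmgb2 and mki67. Of 32105 rows of the count table, 146 matched by name, and 135 of these had at least 10 counts in at least 2 of the 15 libraries. By function, 46 of the 135 were grouped under replication (S phase) and 39 under mitosis (M phase). The other 50 carry a matching name and were placed in neither group. Among them are 14 genes of the small GTPase Cdc42, 11 genes of transcription or splicing (Cdks of transcription together with CDC40, CDC5L and CDC73) and 2 Cdks of G1. MCMBP, MCM8, MCM9 and PRIMPOL were also placed there, so the replication counts leave them out. CENPV stood just inside the count minimum, with 10 as its second-highest count, and POLE4, CDK5R2 and CDK18 just outside, with 8. In all, 11 matching rows lay outside, and 134 of the 135 members passed the filter of the test, the exception being CENPV.

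Cells were sorted by kdrl, the gene of a vascular endothelial growth factor receptor, from embryos at 28 hours post fertilization, and their poly(A) RNA was sequenced. The embryos were wildtype, mutant for the splicing factor gene sf3b1, or siblings, for which the labels name no sf3b1 alleles. Every embryo also overexpressed Stat3, either the wildtype protein (WT-Stat3) or a constitutively active variant (CA-Stat3). None of the 15 libraries came from embryos without overexpression. Each genotype had 2 WT-Stat3 libraries and 3 CA-Stat3 libraries, which gives 6 groups. The labels do not state the promoter or method behind the overexpression, or whether replicates were separate clutches or sorts, so a p-value here reflects only how far such libraries vary, which may be technical.

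Replication starts from origins that the origin recognition complex (Orc) marks in G1, where Cdc6 and Cdt1 load the Mcm helicase. Cyclin E with Cdk2, and the kinase Cdc7, then turn the helicase on with the help of Mcm10, Cdc45 and GINS. DNA polymerases copy both strands while the PCNA clamp, placed by the Rfc loader, holds them on DNA, and ribonucleotide reductase supplies the deoxynucleotides. Mitosis begins when Cdc25 activates Cdk1 with cyclin B, and it ends when the anaphase-promoting complex marks cyclin B for destruction. The chromosomes meanwhile attach to the spindle through centromere proteins, under the watch of the Aurora and Bub kinases. In the vessels of the embryo, dividing endothelial cells supply the cells for sprouts and for the growth of vessel walls.

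Library totals were 3625121 to 6506853 counts in mutants, 5161557 to 8059498 in siblings and 6212802 to 8170371 in wildtypes. The members together held 0.451% to 0.62% of the counts of a mutant library, 0.657% to 0.778% of a sibling library and 0.65% to 0.719% of a wildtype library. Replicate 2 of the mutant WT-Stat3 group stood apart from the other 14 libraries: it was the shallowest, with 39.5% of its counts in 1 row, and it had the lowest member share. As a check of the labels, SF3B1 lay at 82.0 to 108 CPM, which are counts scaled to library size with TMM factors, in mutants, 157 to 172 in siblings and 170 to 208 in wildtypes. The row STAT3 does not tell the constructs apart, with 230 to 468 CPM in WT-Stat3 libraries and 162 to 413 in CA-Stat3 libraries. The sort marker kdrl had 329 to 884 CPM, and none of the 14 endothelial marker rows was at 0 in any library. In bulk RNA, fewer cells of a type and less RNA per cell cannot be told apart.

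In sf3b1 mutants the replication and mitosis genes did not move as a block. ORC1 and MCM10, which license origins and start the helicase, rose, and TOP2A, HMGB2 and mki67, grouped here under chromosome structure, fell. The genes of the Mcm helicase, PCNA, CDK1 and CCNB1 did not pass the test. Between mutants and wildtypes, averaged over the constructs, 28 of 134 members (20.9%) were called, meaning an adjusted p under 0.05. Of these 12 were higher and 16 lower. The background was 28.7% of 18020 genes, with 13.9% higher and 14.8% lower, so the members' count lies below that of all genes. Without wildtype WT-Stat3 replicate 2 the count was 16, and the share of all genes called in that fit is not given here. Of the 46 replication members 6 rose and 2 fell, with a median log2 fold change of 0.11. Of the 38 mitosis members tested 1 rose and 8 fell, with a median of -0.17. The median over all genes was -0.027.

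Against siblings, 28 of 134 members were again called, 11 higher and 17 lower, beside a background of 26.2% of all genes (12.4% higher, 13.9% lower). The replication members split into 5 higher and 4 lower, and the mitosis members into 1 higher and 8 lower. Their medians were -0.034 and -0.32, beside -0.025 over all genes. Mutant and wildtype libraries did not overlap in 16 members (3 replication, 7 mitosis) beside 18.8% of all genes, and mutant and sibling libraries in 16 (5 and 7) beside 15.7%. Both comparisons use the same mutant libraries, so the second does not add independent mutants. Between siblings and wildtypes edgeR called 0 of 134 members and 0% of all 18020 genes. DESeq2 and limma called 0 members there too, and 12 members had an unadjusted p under 0.05. The share of all genes at that unadjusted threshold was not counted.

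**Figure D1:**
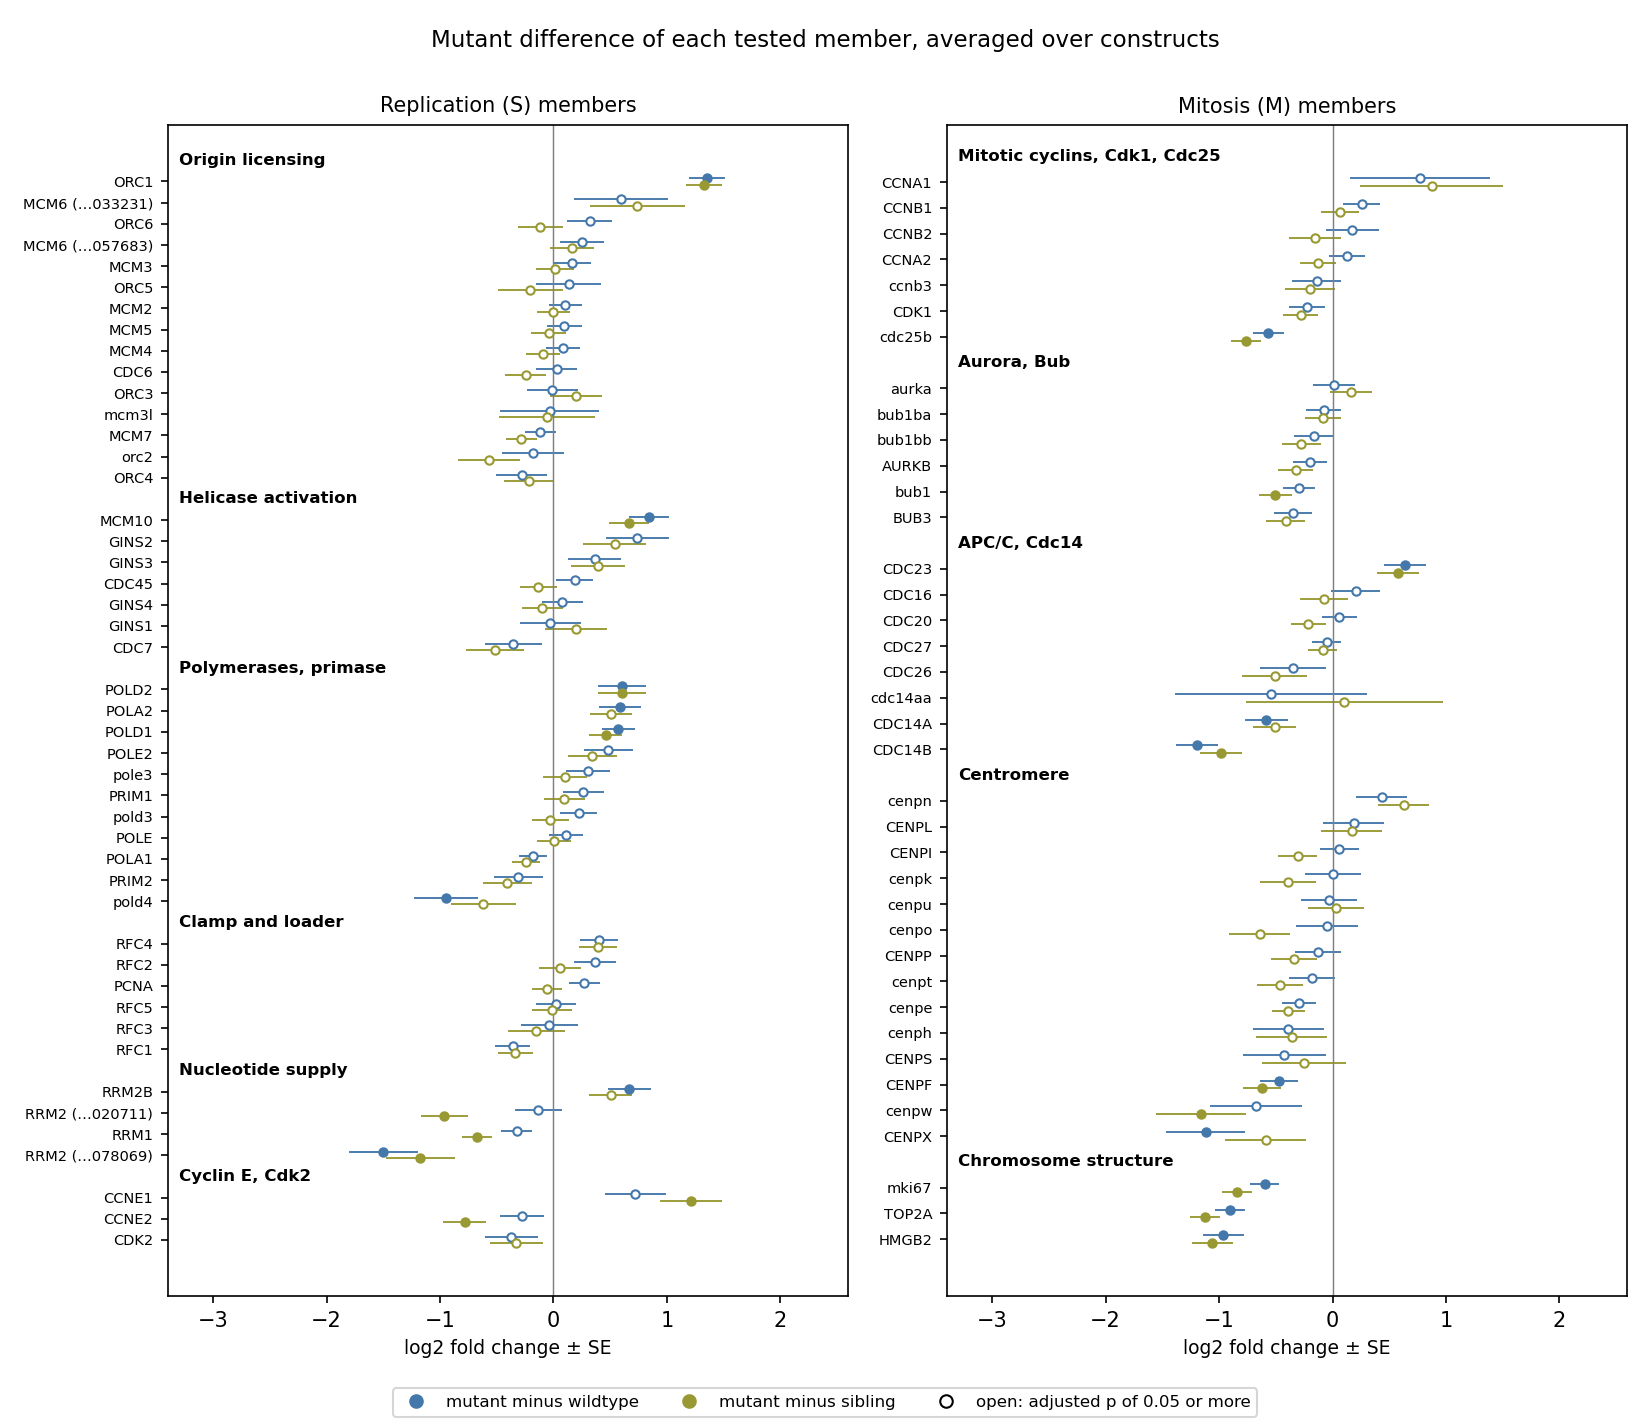
Log2 fold change with its standard error for each tested replication member (left) and mitosis member (right), ordered by role, for mutants minus wildtypes (blue) and mutants minus siblings (olive), each averaged over the constructs. Filled points passed the test. ORC1 stands at 1.36 and 1.33 at the top of the replication panel, and TOP2A, HMGB2 and mki67 at the bottom of the mitosis panel are filled on the left of 0 in both colours.

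Among the 15 origin licensing genes ORC1, the largest subunit of the origin recognition complex, was the one that passed the test. The share of all genes that passed was 28.7% against wildtypes and 26.2% against siblings. ORC1 (ENSDARG00000039217) had 18.1 and 23.1 CPM in the wildtype WT-Stat3 libraries and 15.4, 14.6 and 20.4 in the wildtype CA-Stat3 libraries. Siblings had 20.2 and 19.0 CPM with WT-Stat3 and 15.5, 21.4 and 18.2 with CA-Stat3. Mutants had 49.1 and 58.6 CPM with WT-Stat3 and 35.6, 44.4 and 46.2 with CA-Stat3. Every mutant library lay above every wildtype and sibling library. The rise was 1.36 ± 0.16 against wildtypes (log2, SE; adjusted p = 1.9e-05) and 1.33 ± 0.16 against siblings (adjusted p = 2.98e-05). The other Orc rows, ORC6, ORC5, ORC3, orc2 and ORC4, had log2 fold changes between -0.28 and 0.32 against wildtypes, and none passed the test. The ratio of ORC1 counts to the summed counts of those 5 rows was 0.384 to 0.602 in wildtypes, 0.387 to 0.564 in siblings and 1.03 to 1.58 in mutants. That ratio, like the others given here, was chosen after the values were seen and is a description.

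No row of the Mcm2-7 ring, the helicase that Orc loads, passed the test against wildtypes or siblings. MCM2 (ENSDARG00000102798) had 174 ± 27.9 CPM in wildtypes, 187 ± 41.8 in siblings and 188 ± 21.6 in mutants (mean ± SD, n = 5 each). The 3 genotypes overlapped. The mutant difference was 0.10 ± 0.14 against wildtypes and -0.00076 ± 0.14 against siblings. MCM3, MCM4, MCM5 and MCM7 had log2 fold changes of 0.16, 0.084, 0.095 and -0.12 against wildtypes. Of the rows named MCM6, ENSDARG00000033231 differed by 0.60 ± 0.41 and ENSDARG00000057683 by 0.25 ± 0.19. The loader CDC6 differed by 0.030 ± 0.18 from wildtypes, also without passing.

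MCM10, which helps to convert the loaded helicase into a moving one, was called among the 7 firing genes. That count is near the share of all genes called higher, 13.9% against wildtypes and 12.4% against siblings. MCM10 (ENSDARG00000045815) had 17.1 and 22.8 CPM in wildtype WT-Stat3 libraries and 12.2, 13.4 and 17.8 with CA-Stat3. Siblings had 20.9 and 25.9 CPM with WT-Stat3 and 15.7, 16.8 and 15.0 with CA-Stat3. Mutants had 34.0 and 21.96 CPM with WT-Stat3 and 27.8, 36.1 and 35.0 with CA-Stat3. The CA-Stat3 mutants lay above all other genotypes, while replicate 2 of the WT-Stat3 mutants fell within them. MCM10 rose by 0.84 ± 0.18 against wildtypes (log2, SE; adjusted p = 0.00212) and by 0.66 ± 0.18 against siblings (adjusted p = 0.0112). The call against siblings ended without sibling WT-Stat3 replicate 1 (0.57, adjusted p = 0.0651) and without mutant WT-Stat3 replicate 1 (0.46, adjusted p = 0.0829). Its partners CDC45 and GINS1 to GINS4 did not pass, with log2 fold changes from -0.028 to 0.74 against wildtypes.

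Of the 11 polymerase and primase genes, 3 rose and 1 fell against wildtypes, beside 13.9% and 14.8% of all genes. POLD1, the catalytic subunit of polymerase delta, had 62.7 and 54.8 CPM in wildtypes with WT-Stat3 and 45.6, 52.7 and 50.6 with CA-Stat3. Mutants had 84.0 and 101 CPM with WT-Stat3 and 55.9, 81.8 and 71.7 with CA-Stat3. The lowest mutant lay inside the wildtype range and the other 4 above it. POLD1 rose by 0.57 ± 0.15 (log2, SE; adjusted p = 0.00811), but not without wildtype WT-Stat3 replicate 2 (0.48, adjusted p = 0.0584). The delta subunit POLD2 rose by 0.61 ± 0.21 (adjusted p = 0.0429), a call that ended whichever 1 of the 10 libraries was left out (0.46 to 0.69, adjusted p = 0.0533 to 0.202). POLA2, which tethers the primase, rose by 0.59 ± 0.18 (adjusted p = 0.0249). That gene is a member that the rule for naming genes in the text did not pick. Its call ended without wildtype WT-Stat3 replicate 1 or 2, wildtype CA-Stat3 replicate 1, mutant WT-Stat3 replicate 1 or mutant CA-Stat3 replicate 2 or 3 (0.47 to 0.63, adjusted p = 0.052 to 0.128).

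The small delta subunit pold4 went the other way, by -0.95 ± 0.28 (log2, SE; adjusted p = 0.0194). It had 15.5 and 12.99 CPM in wildtypes with WT-Stat3 and 14.4, 9.76 and 14.2 with CA-Stat3, and in mutants 6.34 and 3.14 with WT-Stat3 and 8.94, 11.3 and 9.77 with CA-Stat3. The groups overlapped with CA-Stat3 and not with WT-Stat3. The call ended without wildtype WT-Stat3 replicate 1 (-0.92, adjusted p = 0.0535) and without mutant WT-Stat3 replicate 2 (-0.76, adjusted p = 0.0974). Against siblings pold4 (-0.62, adjusted p = 0.122) and POLA2 (0.51, adjusted p = 0.0516) did not pass. POLD1 passed there at 0.46 (adjusted p = 0.028), except without sibling WT-Stat3 replicate 1, sibling CA-Stat3 replicate 1, mutant CA-Stat3 replicate 2 or 3, or mutant WT-Stat3 replicate 2 (0.35 to 0.45, adjusted p = 0.053 to 0.15). POLD2 passed at 0.60 (adjusted p = 0.0475), and of the 10 libraries it passed only without sibling CA-Stat3 replicate 3 (without the other 9, 0.45 to 0.72, adjusted p = 0.0596 to 0.209).

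The sliding clamp PCNA (ENSDARG00000054155), a common marker of S phase, had 166 ± 16.1 CPM in wildtypes, 209 ± 32.1 in siblings and 201 ± 19.6 in mutants (mean ± SD, n = 5 each). Its mutant difference was 0.27 ± 0.14 against wildtypes (adjusted p = 0.147) and -0.057 ± 0.14 against siblings (adjusted p = 0.789). None of the 5 Rfc loader rows passed either, with log2 fold changes of -0.36 to 0.40 against wildtypes.

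**Figure D2:**
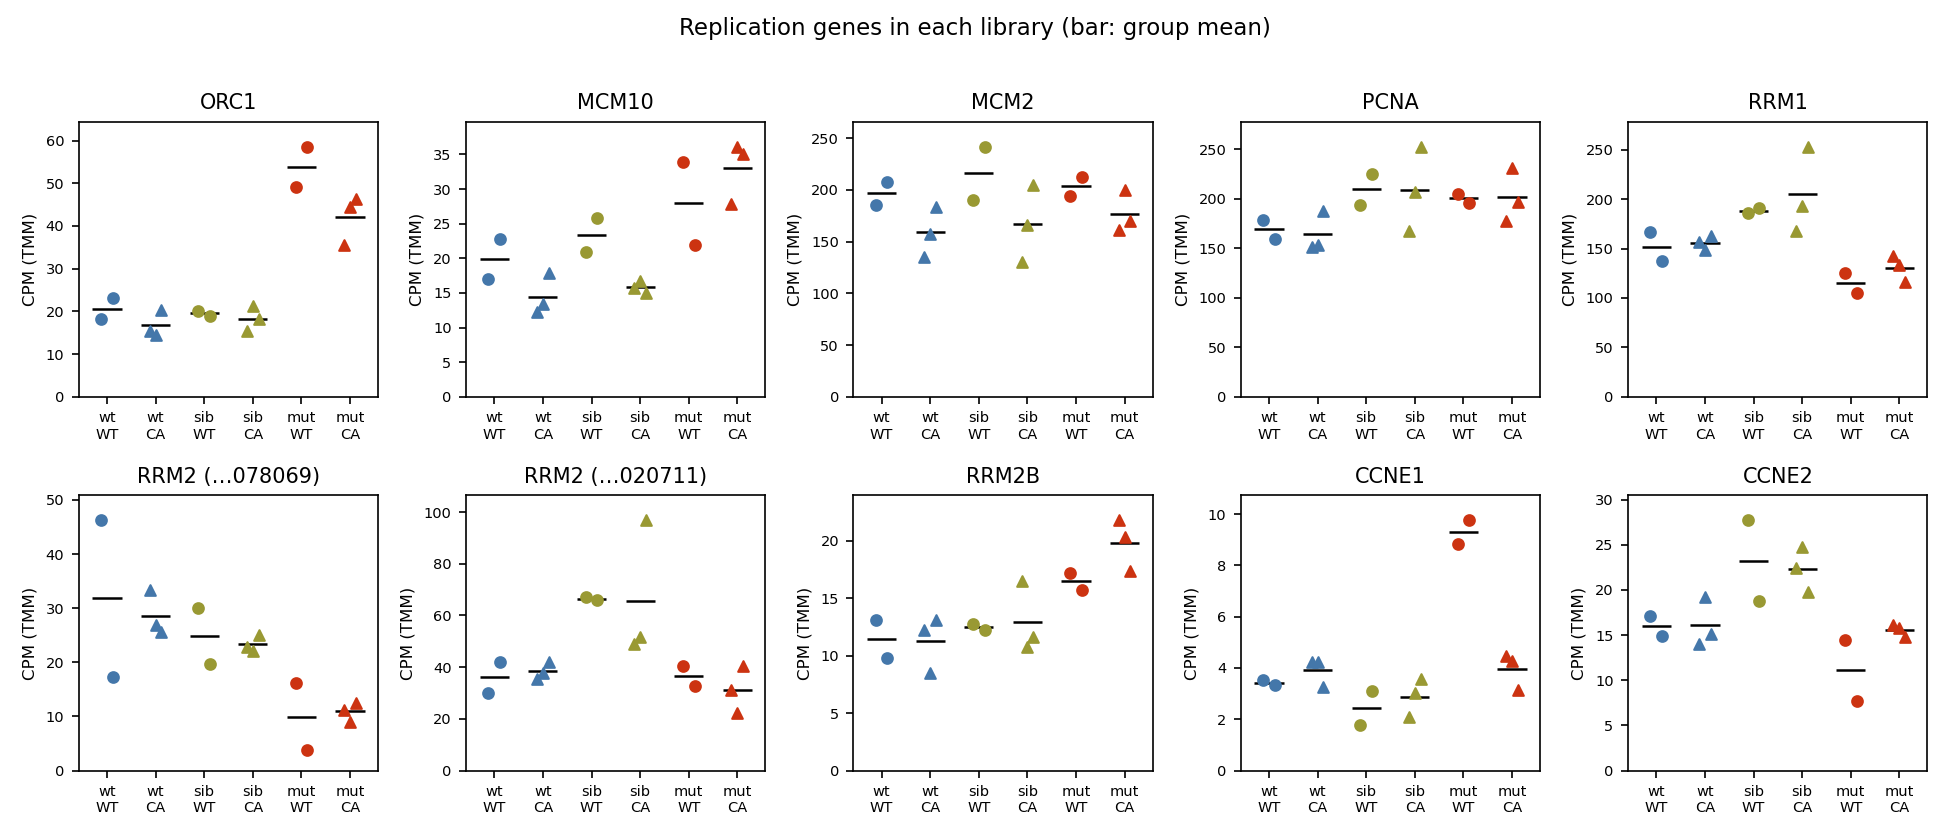
TMM-scaled CPM of 10 replication genes in each library (circles WT-Stat3, triangles CA-Stat3, bars the group means; blue wildtype, olive sibling, red mutant). ORC1 separates every mutant from the other genotypes, MCM2 and PCNA overlap, and CCNE1 is high in the 2 mutant WT-Stat3 libraries, at 8.83 and 9.76 CPM.

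Ribonucleotide reductase has a large subunit, Rrm1, and a small subunit that exists as Rrm2, made in S phase, or Rrm2b, which also serves cells outside S phase. The table holds 2 rows named RRM2. The row ENSDARG00000078069 had 46.2 and 17.4 CPM in wildtypes with WT-Stat3 and 33.3, 26.8 and 25.6 with CA-Stat3. Siblings had 29.9 and 19.7 CPM with WT-Stat3 and 22.8, 22.1 and 25.1 with CA-Stat3, and mutants 16.1 and 3.83 with WT-Stat3 and 11.2, 8.97 and 12.5 with CA-Stat3. All 5 mutants lay below all 10 other libraries. This row fell by 1.5004 ± 0.30 on the log2 scale against wildtypes (adjusted p = 0.0017) and by 1.17 ± 0.31 against siblings (adjusted p = 0.00998).

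The second RRM2 row, ENSDARG00000020711, had 30.1 and 42.1 CPM in wildtypes with WT-Stat3 and 35.5, 37.6 and 42.0 with CA-Stat3. Siblings had 67.0 and 66.0 CPM with WT-Stat3 and 48.8, 51.7 and 96.8 with CA-Stat3, and mutants 40.3 and 32.8 with WT-Stat3 and 31.1, 22.2 and 40.4 with CA-Stat3. Here the siblings stood above both other genotypes, which overlapped each other. Against siblings the mutants were lower, by -0.96 ± 0.21 (log2, SE; adjusted p = 0.00299), and against wildtypes the difference was -0.14 ± 0.21 (adjusted p = 0.66). Siblings exceeded wildtypes by 0.83 ± 0.20, with an unadjusted p of 0.000837 and an adjusted p of 0.481. Without the filter on low counts that difference was the 1 member called between siblings and wildtypes. How reads were shared between like sequences is not stated in the labels or file, so the split between the 2 rows is uncertain.

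RRM1 (ENSDARG00000014017) had 154 ± 11.99 CPM in wildtypes, 198 ± 32.2 in siblings and 125 ± 14.7 in mutants (mean ± SD, n = 5 each). Mutants ranged from 105 to 143 CPM and siblings from 168 to 253, without overlap. The fall against siblings was -0.68 ± 0.13 (log2, SE; adjusted p = 0.00166), and the difference from wildtypes was -0.33 ± 0.13 (adjusted p = 0.0771). RRM2B (ENSDARG00000033367) was the member of the enzyme that rose, from 8.47 to 13.1 CPM in wildtypes to 15.7 to 21.8 in mutants, by 0.67 ± 0.19 (adjusted p = 0.0149). Its groups did not overlap. The call ended without wildtype WT-Stat3 replicate 2 (0.54, adjusted p = 0.0979) and without mutant WT-Stat3 replicate 1 (0.59, adjusted p = 0.0567). Against siblings RRM2B did not pass (0.50 ± 0.19, adjusted p = 0.0604). The ratio of RRM2B counts to those of both RRM2 rows was 0.131 to 0.194 in wildtypes, 0.0956 to 0.23 in siblings and 0.305 to 0.651 in mutants.

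Cyclin E drives entry into S phase with Cdk2, and its genes CCNE1 and CCNE2 differed. CCNE1 (ENSDARG00000098622) had 3.53 and 3.32 CPM in wildtypes with WT-Stat3 and 4.25, 4.24 and 3.28 with CA-Stat3. Siblings had 1.77 and 3.10 CPM with WT-Stat3 and 2.09, 3.01 and 3.56 with CA-Stat3, and mutants 8.83 and 9.76 with WT-Stat3 and 4.47, 4.27 and 3.13 with CA-Stat3. The mutants with WT-Stat3 stood above every other library, and the mutants with CA-Stat3 overlapped the wildtypes. The 2 mutant WT-Stat3 libraries held only 39 and 28 counts of this row, and replicate 2 was the shallowest library. With WT-Stat3 the mutant rise was 1.43 ± 0.41 against wildtypes (log2, SE; adjusted p = 0.0327) and 1.95 ± 0.43 against siblings (adjusted p = 0.0122). With CA-Stat3 the differences were 0.014 ± 0.34 and 0.47 ± 0.35, and neither passed. The difference between these effects was tested as an interaction. It was -1.42 ± 0.53 for wildtypes (unadjusted p = 0.0164, adjusted p = 0.926) and -1.48 ± 0.55 for siblings (unadjusted p = 0.0159, adjusted p = 0.876). Neither interaction passed, so a difference between the constructs was not shown. Averaged over constructs, CCNE1 was higher than in siblings by 1.21 ± 0.28 (adjusted p = 0.00438) and than in wildtypes by 0.72 ± 0.27, which missed the threshold (adjusted p = 0.0511).

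CCNE2 (ENSDARG00000098529) had 22.7 ± 3.66 CPM in siblings, 16.1 ± 2.08 in wildtypes and 13.8 ± 3.48 in mutants (mean ± SD, n = 5 each). Siblings ranged from 18.8 to 27.7 CPM and mutants from 7.67 to 16.1, without overlap. It was lower in mutants than in siblings by -0.78 ± 0.19 (log2, SE; adjusted p = 0.00726) and differed by -0.28 ± 0.19 from wildtypes (adjusted p = 0.301). CDK2, the partner kinase, was not called in either comparison.

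All 3 mitosis members of chromosome structure fell in mutants against both other genotypes, beside 14.8% of all genes against wildtypes and 13.9% against siblings. Topoisomerase II alpha (TOP2A) untangles sister chromatids, Hmgb2 binds and bends DNA, and Ki-67 (mki67) coats mitotic chromosomes and marks cycling cells. TOP2A (ENSDARG00000024488) had 207 and 235 CPM in wildtypes with WT-Stat3 and 209, 308 and 241 with CA-Stat3. Siblings had 229 and 269 CPM with WT-Stat3 and 267, 324 and 323 with CA-Stat3, and mutants 134 and 119 with WT-Stat3 and 136, 124 and 119 with CA-Stat3. All 5 mutants lay below all 10 other libraries, and the mutants differed little among themselves. TOP2A fell by 0.90 ± 0.13 on the log2 scale against wildtypes (adjusted p = 0.000119) and by 1.12 ± 0.13 against siblings (adjusted p = 2.43e-05). The ratio of TOP2A to PCNA counts was 1.16 to 2.02 in wildtypes, 1.18 to 1.59 in siblings and 0.536 to 0.766 in mutants.

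HMGB2 (ENSDARG00000029722) had 621 and 511 CPM in wildtypes with WT-Stat3 and 726, 593 and 611 with CA-Stat3. Siblings had 598 and 664 CPM with WT-Stat3 and 705, 648 and 625.3 with CA-Stat3, and mutants 339 and 144 with WT-Stat3 and 454, 344 and 392 with CA-Stat3. The mutants were the 5 lowest libraries, with replicate 2 of WT-Stat3 the lowest. HMGB2 fell by 0.96 ± 0.18 on the log2 scale against wildtypes (adjusted p = 0.00102) and by 1.06 ± 0.18 against siblings (adjusted p = 0.000621). The row mki67 (ENSDARG00000091150) had 513 ± 44.1 CPM in wildtypes, 607 ± 75.6 in siblings and 340 ± 48.7 in mutants (mean ± SD, n = 5 each). Its mutants, at 257 to 376 CPM, lay below the wildtypes at 471 to 584 and the siblings at 514 to 695. It fell by 0.60 ± 0.13 against wildtypes (adjusted p = 0.00273) and by 0.84 ± 0.13 against siblings (adjusted p = 0.000256). The calls of TOP2A, HMGB2 and mki67 in both comparisons held without each single library.

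Markers of other cell types also differed in mutants, some lower and some higher. Over all genes 14.8% were lower and 13.9% higher against wildtypes, and 13.9% lower and 12.4% higher against siblings. In mutants against wildtypes 5 of 11 neural marker rows were lower and none higher, and against siblings 9 of 11 were lower. The summed level of all 13 neural rows, tested or not, was 142 to 335 CPM in mutants, 231 to 440 in wildtypes and 430 to 724 in siblings. Sums of the other types also cover all rows of a list. These number 15 leukocyte, 9 erythroid, 7 mesenchymal and 7 muscle rows. FABP7 was at 0 in 4 mutant, 2 wildtype and 2 sibling libraries, her4.1 in 2 mutant, 1 wildtype and 4 sibling libraries, and neurog1 in 1 mutant library. Leukocyte markers were lower in 13 of 14 rows against wildtypes and in 11 against siblings, with a sum of 162 to 610 CPM in mutants, 1317 to 2663 in wildtypes and 1101 to 2866 in siblings. The MFAP4 row ENSDARG00000038683 was at 0 in 3 mutant libraries, fcer1g in 2 and the MFAP4 rows ENSDARG00000088745 and ENSDARG00000089667 in 1 each, and these were at 0 in no other library. The MFAP4 row ENSDARG00000038681 was at 0 in 1 mutant, 2 wildtype and 2 sibling libraries. Mesenchymal markers were lower in 5 of 6 rows against wildtypes and in 6 against siblings (312 to 607 CPM in mutants, 1077 to 1925 in wildtypes, 609 to 2547 in siblings), with MATN1 at 0 in 3 mutant, 2 wildtype and 2 sibling libraries. Erythroid markers were higher in 7 of 8 rows against wildtypes and in 4 against siblings, at 734 to 1584 CPM in mutants, 227 to 536 in wildtypes and 327 to 838 in siblings, which overlapped the mutants. No erythroid row was at 0 in a mutant. Epidermal rows were lower in 3 of 6 against wildtypes and 1 against siblings, and muscle rows in 1 and 3 of 6. The counts of 1 row in 6, or 16.7%, are near the share of all genes lower. Endothelial markers were higher in 2 of 14 rows and lower in 2 against wildtypes, and higher in 4 and lower in 0 against siblings, at 2937 to 4745 CPM in mutants, 3411 to 5293 in wildtypes and 1895 to 4376 in siblings. The endothelial rows called, 28.6% in both comparisons, were near the 28.7% and 26.2% of all genes. Sibling CA-Stat3 replicate 3 stood apart, with the lowest endothelial sum, 1895 CPM, and the highest muscle sum, 1208 CPM. Without it the calls of TOP2A, HMGB2 and mki67 against siblings held. In that fit, whose share of all genes called is not given here, 30 members were called in place of 28. The part of these cell types in the changes of the members was not tested.

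**Figure D3:**
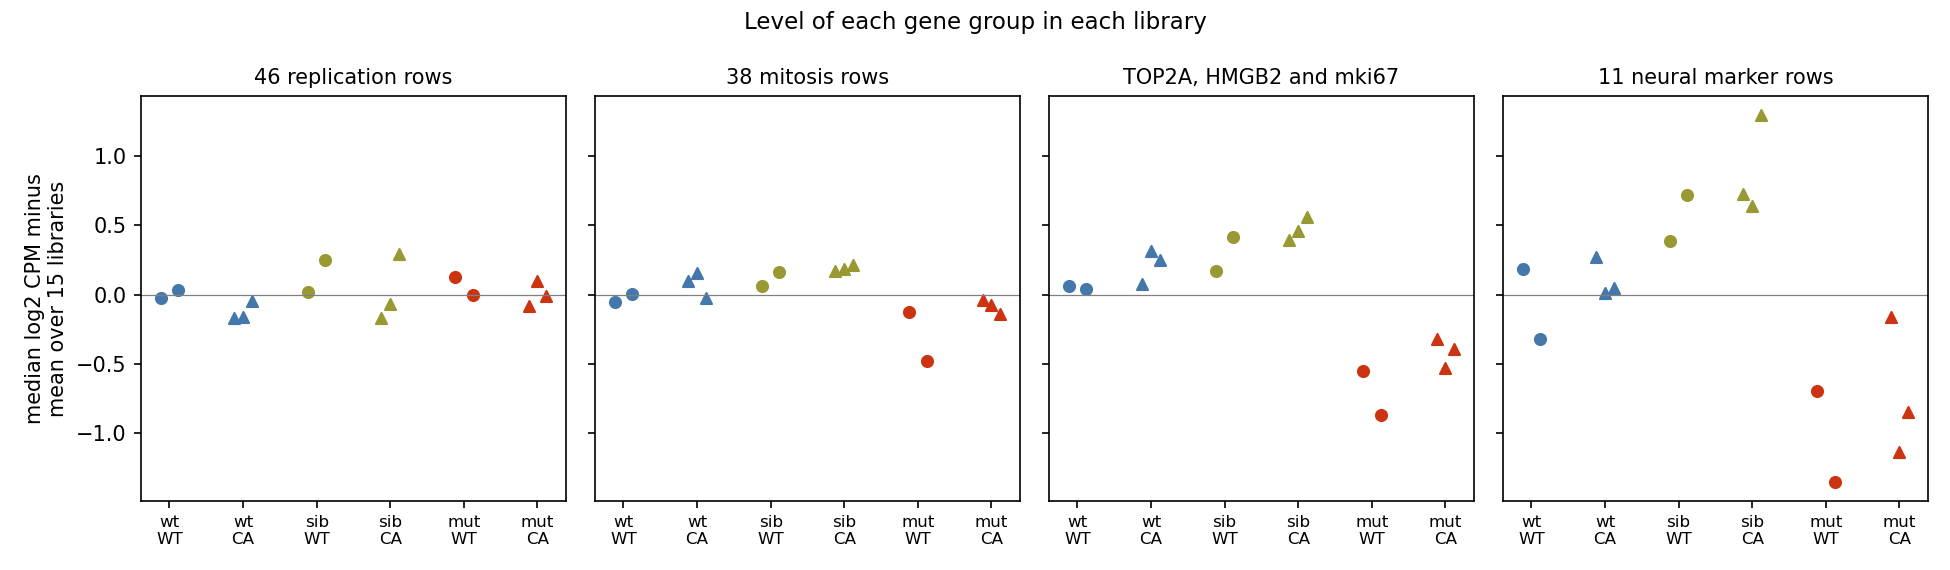
Median over the genes of a group of log2 CPM minus the gene's mean over the 15 libraries, in each library, for the replication members, the mitosis members, the 3 chromosome structure genes and the neural markers (circles WT-Stat3, triangles CA-Stat3). The replication panel overlaps between genotypes. In the chromosome structure panel mutants lie at -0.87 to -0.32, wildtypes at 0.039 to 0.31 and siblings at 0.17 to 0.56, and in the neural panel the siblings are highest.

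As groups, the replication members had medians of -0.086 to 0.12 in mutants, -0.17 to 0.033 in wildtypes and -0.17 to 0.29 in siblings on this scale of log2 deviations. The mitosis members had medians of -0.48 to -0.036 in mutants, -0.052 to 0.16 in wildtypes and 0.064 to 0.21 in siblings. The replication medians overlapped across all 3 genotypes. The mitosis medians of mutants lay below those of all siblings and overlapped those of wildtypes at the edge.

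Of the 7 genes that start mitosis, 1 was called, lower in mutants against both other genotypes. This count is near the share of all genes lower, 14.8% against wildtypes and 13.9% against siblings. CDK1 (ENSDARG00000087554), the mitotic kinase, had 40.3 ± 3.22 CPM in wildtypes, 42.7 ± 7.42 in siblings and 35.2 ± 6.67 in mutants (mean ± SD, n = 5 each). CCNB1 (ENSDARG00000051923), its cyclin, had 33.7 ± 4.03, 38.9 ± 7.74 and 40.2 ± 5.55 CPM in the same order. Both overlapped across genotypes, and the differences of mutants from wildtypes, -0.23 ± 0.15 for CDK1 and 0.26 ± 0.16 for CCNB1, did not pass. The direction of the CCNB1 difference from siblings (0.064 ± 0.16) turned without sibling WT-Stat3 replicate 1 (-0.14) and without mutant CA-Stat3 replicate 2 (-0.0063). The phosphatase cdc25b, which switches Cdk1 on, had 85.1 and 89.5 CPM in wildtypes with WT-Stat3 and 90.0, 103 and 97.9 with CA-Stat3. Its mutants had 63.4 and 69.7 CPM with WT-Stat3 and 65.7, 45.3 and 63.2 with CA-Stat3, all below every wildtype and sibling library. It fell by 0.57 ± 0.13 on the log2 scale against wildtypes (adjusted p = 0.00515) and by 0.76 ± 0.13 against siblings (adjusted p = 0.000723), and both calls held without each single library. The gene is a member that the rule for naming genes did not pick, and it was named for its role.

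Of the 6 Aurora and Bub genes, edgeR called 0 against wildtypes, with 0 at an unadjusted p under 0.05, and 1 lower against siblings. Among all genes 28.7% were called against wildtypes, and 13.9% were lower against siblings. AURKB (ENSDARG00000037640), the kinase of the chromosomal passenger complex, had 27.8 ± 2.15 CPM in wildtypes, 30.0 ± 3.23 in siblings and 24.7 ± 4.93 in mutants (mean ± SD, n = 5 each). The genotypes overlapped, and the differences of -0.20 ± 0.15 from wildtypes and -0.33 ± 0.15 from siblings did not pass (adjusted p = 0.347 and 0.126). The spindle checkpoint kinase bub1 is a member that the rule for naming genes did not pick. It was lower than in siblings by -0.50 ± 0.14 (adjusted p = 0.0171). That call ended without sibling WT-Stat3 replicate 2 (-0.39, adjusted p = 0.1) and without mutant WT-Stat3 replicate 1 (-0.44, adjusted p = 0.06).

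The 8 genes of the anaphase-promoting complex and of the Cdc14 phosphatases moved in both directions. CDC14B (ENSDARG00000021483), a phosphatase that opposes Cdk1, had 44.7 and 36.8 CPM in wildtypes with WT-Stat3 and 37.97, 51.6 and 45.3 with CA-Stat3. Siblings had 33.3 and 38.6 CPM with WT-Stat3 and 30.7, 48.2 and 35.2 with CA-Stat3, and mutants 23.1 and 14.3 with WT-Stat3 and 22.6, 17.1 and 15.3 with CA-Stat3. No mutant reached the lowest wildtype or sibling. CDC14B fell by 1.198 ± 0.19 on the log2 scale against wildtypes (adjusted p = 0.0002) and by 0.98 ± 0.19 against siblings (adjusted p = 0.00122), and both calls held without each single library.

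CDC14A, a second phosphatase of this family, is a member that the rule for naming genes did not pick. It fell by 0.58 ± 0.19 on the log2 scale against wildtypes (adjusted p = 0.0301). The call ended without wildtype WT-Stat3 replicate 2, wildtype CA-Stat3 replicate 3, mutant WT-Stat3 replicate 1 or mutant CA-Stat3 replicate 2 or 3 (-0.60 to -0.41, adjusted p = 0.0517 to 0.11). CDC23, a scaffold subunit of the anaphase-promoting complex, was the mitosis member that rose. It had 11.4 to 15.5 CPM in wildtypes and 17.2 to 26.1 in mutants, without overlap, and rose by 0.64 ± 0.19 (log2, SE; adjusted p = 0.0165). The call ended without wildtype WT-Stat3 replicate 2 (0.55, adjusted p = 0.0907) and without mutant WT-Stat3 replicate 2 (0.48, adjusted p = 0.0937). Against siblings it rose by 0.57 ± 0.19 (adjusted p = 0.0313), a call that held only without sibling WT-Stat3 replicate 2, sibling CA-Stat3 replicate 3, mutant WT-Stat3 replicate 1 or mutant CA-Stat3 replicate 3, and otherwise ended (0.43 to 0.56, adjusted p = 0.0574 to 0.153). CDC20, CDC27, CDC16 and CDC26 did not pass in either comparison.

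Of the 14 centromere genes tested, 2 fell against wildtypes and 2 against siblings. These counts are near the share of all genes called lower, 14.8% against wildtypes and 13.9% against siblings. CENPF, a large kinetochore protein of late G2 and mitosis, was called in both. It had 199.5 to 302 CPM in wildtypes, 217 to 303 in siblings and 96.9 to 199.2 in mutants, where the highest mutant came just below the lowest wildtype. CENPF was lower by -0.47 ± 0.17 against wildtypes (log2, SE; adjusted p = 0.0432). That call ended without wildtype WT-Stat3 replicate 1 or 2, wildtype CA-Stat3 replicate 2, mutant WT-Stat3 replicate 2 or mutant CA-Stat3 replicate 2 or 3 (-0.55 to -0.28, adjusted p = 0.0568 to 0.212). Against siblings it was lower by -0.62 ± 0.17 (adjusted p = 0.0122), and not without mutant WT-Stat3 replicate 2 (-0.42, adjusted p = 0.0707). CENPF is a member that the rule for naming genes did not pick.

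CENPX, a histone-fold protein shared by the centromere and the Fanconi pathway, fell by 1.12 ± 0.35 on the log2 scale against wildtypes (adjusted p = 0.024). It had 3.53 and 4.23 CPM in wildtypes with WT-Stat3 and 4.75, 2.82 and 6.55 with CA-Stat3, and in mutants 1.81 and 0.697 with WT-Stat3 and 3.03, 2.99 and 2.58 with CA-Stat3. The CA-Stat3 groups overlapped. The call ended without wildtype WT-Stat3 replicate 2, wildtype CA-Stat3 replicate 3 or mutant WT-Stat3 replicate 2 (-1.09 to -0.89, adjusted p = 0.0542 to 0.101). Against siblings cenpw, its histone-fold relative, was lower by -1.16 ± 0.40 (adjusted p = 0.0417). That call held only without sibling CA-Stat3 replicate 1, sibling WT-Stat3 replicate 2 or mutant CA-Stat3 replicate 3, and otherwise ended (-1.30 to -0.99, adjusted p = 0.0521 to 0.147).

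**Figure D4:**
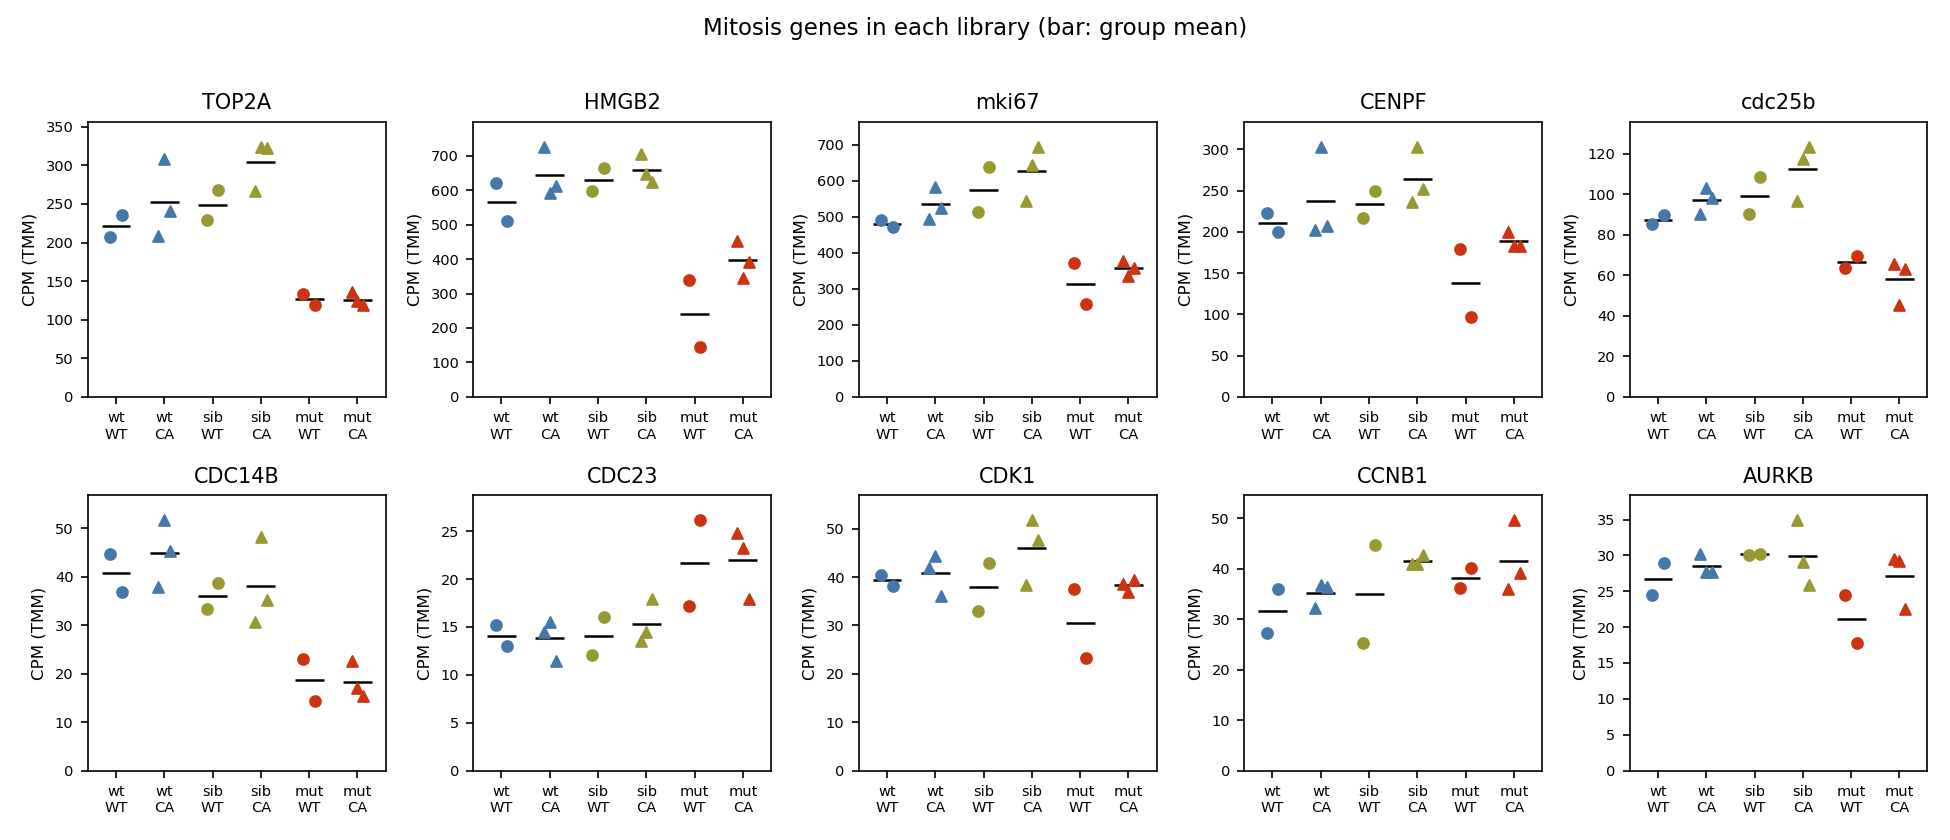
TMM-scaled CPM of 10 mitosis genes in each library (circles WT-Stat3, triangles CA-Stat3, bars the group means; blue wildtype, olive sibling, red mutant). TOP2A, HMGB2, mki67, CENPF, cdc25b and CDC14B are lower in every mutant than in any wildtype or sibling, CDC23 is higher in mutants than in wildtypes, and CDK1, CCNB1 and AURKB overlap.

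Of the 50 members placed in neither the replication nor the mitosis group, 11 (22%) were called against wildtypes, 5 higher and 6 lower. That share is below the 28.7% of all genes. POLDIP2, named for its binding to polymerase delta, had 7.17 to 9.74 CPM in wildtypes, 6.88 to 11.8 in siblings and 15.2 to 28.6 in mutants. It rose by 1.30 ± 0.21 against wildtypes (log2, SE; adjusted p = 0.000303) and by 1.16 ± 0.21 against siblings (adjusted p = 0.000948). MCMBP, which binds free Mcm subunits, had 21.8 to 30.1 CPM in wildtypes, 18.8 to 27.0 in siblings and 38.3 to 56.5 in mutants. It rose by 0.89 ± 0.14 (adjusted p = 0.00026) and by 1.003 ± 0.14 (adjusted p = 0.000136). Neither gene's mutants overlapped the other genotypes, and all these calls held without each single library.

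CDK4, the kinase that works with cyclin D in G1, is a member that the rule for naming genes did not pick. It had 24.2 to 35.9 CPM in wildtypes and 13.8 to 21.3 in mutants. It fell by 0.82 ± 0.17 on the log2 scale against wildtypes (adjusted p = 0.00232), and this held without each library. Against siblings it fell by 0.55 ± 0.17 (adjusted p = 0.0284), but not without sibling CA-Stat3 replicate 2, sibling WT-Stat3 replicate 2, mutant WT-Stat3 replicate 1 or mutant CA-Stat3 replicate 2 (-0.52 to -0.43, adjusted p = 0.0584 to 0.104). CDK19, a kinase of the Mediator complex, fell by 1.62 ± 0.43 against wildtypes (adjusted p = 0.00961) and by 1.72 ± 0.43 against siblings (adjusted p = 0.00769). Its counts were low, at 5 and 1 in mutants with WT-Stat3 and 12, 2 and 12 with CA-Stat3. Wildtype libraries held 20 to 36 counts and sibling libraries 13 to 41. The CDC42EP4 row ENSDARG00000101457, a Cdc42 effector, fell by 1.08 ± 0.25 against wildtypes (adjusted p = 0.00393) and by 1.08 ± 0.25 against siblings (adjusted p = 0.0047). The calls of CDK19 and this CDC42EP4 row held without each library. The other CDC42EP4 row, ENSDARG00000045036, was not called in either comparison. With WT-Stat3 its means were 13.8 CPM in wildtypes, 18.3 in siblings and 14.3 in mutants. With CA-Stat3 they were 21.5, 29.3 and 15.4 CPM in the same order.

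The remaining named members of this kind were less stable. CDK5, a kinase best known from neurons, rose by 0.62 ± 0.20 against wildtypes (log2, SE; adjusted p = 0.0313), but not without wildtype WT-Stat3 replicate 2, wildtype CA-Stat3 replicate 2 or 3, mutant WT-Stat3 replicate 1 or mutant CA-Stat3 replicate 1 or 3 (0.36 to 0.62, adjusted p = 0.0506 to 0.233). AURKAIP1, an Aurora A interacting protein of mitochondrial ribosomes, rose by 0.73 ± 0.21 against siblings (adjusted p = 0.0179), but not without sibling WT-Stat3 replicate 2 (0.63, adjusted p = 0.0921) or mutant WT-Stat3 replicate 1 (0.57, adjusted p = 0.091). CDK11A, a kinase linked to splicing, rose by 0.67 ± 0.19 against siblings (adjusted p = 0.014), but not without sibling WT-Stat3 replicate 1 (0.58, adjusted p = 0.0705) or mutant WT-Stat3 replicate 1 (0.32, adjusted p = 0.15). The Cdc42 effector row cdc42ep1a rose by 0.63 ± 0.21 against siblings (adjusted p = 0.035), a call that held only without sibling CA-Stat3 replicate 1, mutant WT-Stat3 replicate 1 or mutant CA-Stat3 replicate 1 (otherwise 0.48 to 0.69, adjusted p = 0.054 to 0.146). CDC42SE2 is a member that the rule for naming genes did not pick. It was called lower against wildtypes at 6, 15, 9, 16 and 8 counts in wildtypes and 0, 0, 3, 5 and 2 in mutants. The call ended without wildtype WT-Stat3 replicate 2 or mutant WT-Stat3 replicate 1 or 2 (adjusted p = 0.0601 to 0.0781). Its fitted fold change depends on the prior count and is not given.

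The mutant effect was also measured in each construct separately. With WT-Stat3, 10 of 134 members differed from wildtypes (4 higher, 6 lower) beside a background of 12.1% (6.14% higher, 5.94% lower). From siblings 10 differed (4 higher, 6 lower) beside 7.48% (3.88% and 3.6%). With CA-Stat3, 15 differed from wildtypes (7 higher, 8 lower) beside 14.7% (7.26% and 7.43%). From siblings 19 differed (6 higher, 13 lower) beside 15.8% (7.49% and 8.31%). ORC1, TOP2A, MCMBP and POLDIP2 were called in all 4. Most of them lost their WT-Stat3 calls when mutant WT-Stat3 replicate 2 was left out, as the counts given below show. Within a construct, the comparisons with wildtypes and with siblings use the same mutant libraries. The ORC1 rise against wildtypes was 1.38 ± 0.25 with WT-Stat3 (log2, SE; adjusted p = 0.00249) and 1.33 ± 0.20 with CA-Stat3 (adjusted p = 0.000468). The TOP2A fall was -0.80 ± 0.20 (adjusted p = 0.0182) and -1.004 ± 0.17 (adjusted p = 0.00089). HMGB2 fell by 1.23 ± 0.28 with WT-Stat3 (adjusted p = 0.0116) and differed by -0.70 ± 0.23 with CA-Stat3, without passing (adjusted p = 0.0503).

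MCM10 rose by 1.19 ± 0.22 with CA-Stat3 against wildtypes (adjusted p = 0.00207) and did not pass with WT-Stat3. The interaction for MCM10 was 0.68 ± 0.35 (adjusted p = 0.926), so a difference between the constructs was not shown. These counts in single constructs rested on few libraries. Without mutant WT-Stat3 replicate 2 the WT-Stat3 counts became 1 against wildtypes and 1 against siblings, and without mutant WT-Stat3 replicate 1 they became 18 and 19. Without wildtype WT-Stat3 replicate 1 or 2 the former was 2 or 4, and without sibling WT-Stat3 replicate 1 or 2 the latter was 4 or 2. The CA-Stat3 count against wildtypes was 8 without mutant CA-Stat3 replicate 2. Against siblings it was 8 or 10 without mutant CA-Stat3 replicate 2 or 3, and 11 without sibling CA-Stat3 replicate 2 or 3. The share of all genes called in these reduced fits is not given here, so the counts describe stability only.

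**Figure D5:**
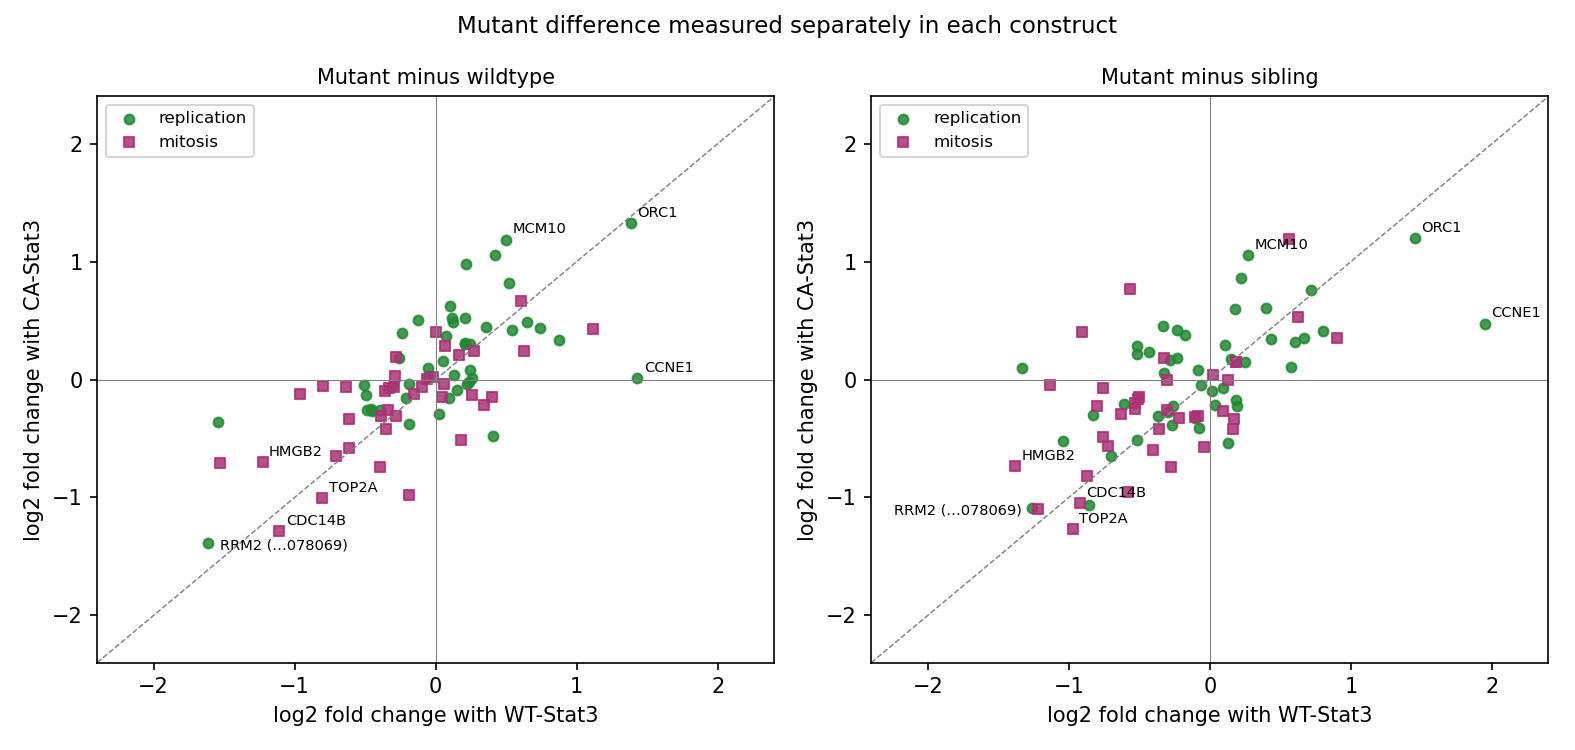
Log2 fold change of the mutant with WT-Stat3 (horizontal) and with CA-Stat3 (vertical) for the replication members (green circles) and mitosis members (purple squares), against wildtypes (left) and siblings (right). The dashed line marks equal values. ORC1 and TOP2A lie near it in the left panel, while CCNE1 lies far to the right of it, at 1.43 with WT-Stat3.

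The 2 constructs share no library, so their mutant effects can be set side by side. Over the 84 replication and mitosis members tested, Pearson's r between the effects against wildtypes was 0.686, and 62 of 84 (73.8%) had the same sign. Over all 18020 genes r was 0.635 and 74.6% had the same sign. Against siblings r was 0.622 with 60 of 84 (71.4%) of the same sign, beside 0.633 and 73.5% over all genes. These are correlations across genes, which are not independent replicates, and the members lie close to all genes.

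The constructs were compared with each other in the same fit. Averaged over genotypes, edgeR called 0 of 134 members between CA-Stat3 and WT-Stat3 and 0% of all genes. There were 9 members with an unadjusted p under 0.05, DESeq2 called 1 member and limma 0. All genes were not counted at that unadjusted threshold. The smallest unadjusted values among replication genes, chosen after they were seen, were those of MCM5 (-0.32 ± 0.13, adjusted p = 0.314) and MCM2 (-0.29 ± 0.12, adjusted p = 0.319). HMGB2 was the mitosis member with an unadjusted p under 0.05 (0.32 ± 0.15, adjusted p = 0.386). The median over replication members was -0.098, over mitosis members 0.14 and over all genes 0.041. Without mutant WT-Stat3 replicate 1, the HMGB2 difference was 0.57. That fit keeps replicate 2, the shallowest library, as the only mutant with WT-Stat3.

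Within genotypes edgeR, DESeq2 and limma each called 0 members between the constructs. The members with an unadjusted p under 0.05 numbered 4 in wildtypes, 5 in siblings and 12 in mutants. At an adjusted p under 0.05 edgeR called 0% of all genes in each. Neither interaction of construct and mutant genotype called a member with any of the 3 tools, and edgeR called 0% of all genes. At an unadjusted p under 0.05 the interactions held 2 members against wildtypes and 5 against siblings. The share of all genes at the unadjusted threshold was not counted, so these member counts have no background. Without mutant WT-Stat3 replicate 1 the count of members called was 2 for the construct in mutants and 2 for the interaction against siblings. The share of all genes called in that reduced fit is not given here.

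Genes of the same processes that the name rule does not reach were counted from separate lists. Of 32 further replication genes 9 rose and 1 fell against wildtypes, and 4 rose and 4 fell against siblings. These shares, 31.2% and 25%, are near the 28.7% and 26.2% of all genes. By direction, all genes had 13.9% higher and 14.8% lower against wildtypes, and 12.4% higher and 13.9% lower against siblings. Against wildtypes the calls of this list thus leaned more to rises than those of all genes. ATAD2, a chromatin ATPase of replicating cells, rose by 0.96 ± 0.13 (log2, SE; adjusted p = 4.48e-05), RPA1, which coats single-stranded DNA, by 0.84 ± 0.14 and TYMS, which makes thymidylate, by 0.49 ± 0.13. TK1, which salvages thymidine and was named outside the rule, fell by 0.64 ± 0.20. Of 61 further mitosis genes 6 rose and 7 fell against wildtypes, and 2 rose and 11 fell against siblings. Both shares, 21.3%, are below those of all genes, and against siblings the calls leaned more to falls. NCAPD3, a condensin II subunit, rose by 1.23 ± 0.19, CKAP5, which lengthens microtubules, fell by 0.60 ± 0.13 and the mitotic kinesin kif20ba fell by 0.83 ± 0.19. The medians were 0.11 and -0.034 against wildtypes, and 0.0056 and -0.23 against siblings.

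Of 34 genes that control G1 and the E2F factors, 10 rose and 6 fell against wildtypes, and 7 rose and 6 fell against siblings. These shares, 47.1% and 38.2%, are above the 28.7% and 26.2% of all genes. The list was chosen with earlier results of these data known, so the shares are a description. RBL2, a pocket protein that holds E2F targets down, rose by 2.91 ± 0.31 (log2, SE), and cdkn1a, the Cdk inhibitor p21, rose by 1.98 ± 0.25. E2F8, a repressor of E2F targets, fell by 1.08 ± 0.17. A list of 32 checkpoint genes had 14 higher and 3 lower against wildtypes, or 53.1%, and 13 higher and 4 lower against siblings, beside the 28.7% and 26.2% of all genes. Whether to report the checkpoint list was decided after its values were known. Between siblings and wildtypes, and between the constructs, edgeR called 0 genes of these 4 lists.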

How the data were processed

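Gene counts of 15 bulk RNA-seq libraries were used as the authors deposited them: raw counts per gene, with no normalization. Per the labels' protocols, kdrl-positive cells were collected, and libraries were made from small amounts of RNA with oligo(dT) priming. Trim Galore, STAR 2.4.2a, Picard, featureCounts, DESeq2 and the GRCz10 build are listed in the submitters' processing notes, without their roles. Not given in the sources used here: the annotation, the strand setting and the treatment of duplicates and multiple alignments. Of 32105 rows, 26269 have a symbol; 5836 have none and could not match a name.

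Here edgeR 4.0.16 fitted 1 quasi-likelihood model over all 15 libraries with a coefficient for each of the 6 groups. Genes were kept by filterByExpr (18020 genes), scaled by TMM, and p-values were adjusted by the Benjamini-Hochberg method over all of them, with a threshold of 0.05. Averages over constructs weight both equally. Standard errors are the fold change divided by the square root of F. Alternatives were DESeq2 1.42.0, limma 3.58.1, other scaling and filters, each comparison's own libraries, a replicate block, leaving out each library and, added after the data were seen, thinning to 3625121 counts. The model was tested on simulated data. Genes were named by rule: a fixed set of markers, the 8 called members of largest change per direction against wildtypes and against siblings, 3 elsewhere, and up to 3 called genes of each further list. Genes of the checkpoint list, which that rule would name, are not named here, and that list was left out for a time and put back after its values were seen. The members and lists were chosen with earlier results of these data known.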

Additional observations from a re-analysis of the deposited data

Results flagged for a closer look

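In 4 of 87 sets of the 5 libraries of a genotype, pooled over both constructs, 1 library lay far from the other 4 by Dixon's test at the 95% level, which flags about 1 set in 20 by chance. CCNB1 was 25.4 CPM in sibling WT-Stat3 replicate 1 and 41.0 to 44.6 in the other siblings. CDK1 was 23.4 CPM in mutant WT-Stat3 replicate 2 and 37.0 to 39.4 in the other mutants. CCNE2 was 7.67 CPM in the same library and 14.5 to 16.1 in the other mutants. The CDC42EP4 row ENSDARG00000101457 was 8.02 CPM in sibling WT-Stat3 replicate 1 and 10.8 to 11.7 in the other siblings.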

How the results depend on the processing

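Of 1522 alternative values of single genes, 1363 kept their direction and side of the threshold, 124 lost the call, 4 gained one and 31 changed sign. The cause of these shifts was not tested. Leaving out 1 library at a time, the count of members called against wildtypes ranged from 16 to 29 (28 with all libraries), and within constructs from 1 to 18 with WT-Stat3 and 8 to 17 with CA-Stat3. Against siblings within constructs it ranged from 1 to 19 with WT-Stat3 and 8 to 23 with CA-Stat3. For WT-Stat3 the counts against wildtypes and siblings were 5 and 6 with limma, 6 and 6 after thinning, and 2 and 1 with only each comparison's own libraries. Between siblings and wildtypes no filter gave 1 call. Between constructs DESeq2 gave 1 call in the average, and leaving out libraries gave 0 to 1 there, 0 to 2 in mutants and 0 to 2 for the interaction with the sibling contrast. The share of all genes called under these alternatives is not given here.

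The sign changes were of uncalled values. Leaving out libraries, the log2 fold changes against siblings ranged from -0.14 to 0.27 for CCNB1, -0.13 to 0.0070 for PCNA and -0.11 to 0.070 for MCM2. MCM2 against siblings was 0.044 with limma and 0.015 with the replicate block. Siblings minus wildtypes ranged from -0.052 to 0.36 for CCNB1, -0.060 to 0.13 for CDK1, -0.0021 to 0.18 for MCM2 and -0.61 to 0.096 for the RRM2 row ENSDARG00000078069, and CDK1 was -0.029 after thinning. CA-Stat3 minus WT-Stat3 ranged from -0.070 to 0.034 for PCNA, -0.19 to 0.037 for the RRM2 row ENSDARG00000020711 and -0.26 to 0.42 for ENSDARG00000078069, which was 0.032 with limma and 0.017 with the replicate block.

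The labels do not say that equal replicate numbers share a clutch or day. Deviations from the group mean correlated at -0.148 to 0.336 over 33 pairs of same-numbered libraries (median 0.083). Over 60 pairs of unlike numbers they correlated at -0.392 to 0.392 (median -0.028). Of 15 libraries 10 correlated best with their own number. In a group of 2 libraries the deviations are mirror images, so the pairs are not independent and cannot decide whether equal numbers share a batch. With the replicate block 29 members were called against wildtypes and 34 against siblings, and the share of all genes in that fit is not given here. The shallowest mutant library and the 2 WT-Stat3 libraries per genotype limit what single constructs can show.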
